A study of Mus musculus with 6 samples.

Results

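The genes described here are the members of the transforming growth factor beta (TGF-beta) and bone morphogenetic protein (BMP) pathway that were measured in T1 and T2, a pair of tumor cell populations from a mouse mammary tumor. Members were picked by a rule on gene symbols, which took, among others, the numbered Bmp, Gdf, Smad and Ltbp genes, the TGF-beta ligands and receptors, the BMP and activin receptors, the activin and inhibin subunits, the Smurf ligases, Id1 to Id4, and Nog, Fst, Fstl3, Chrd, Nodal, Bambi and Eng. It matched 70 of the 24129 gene names in the table. Of these, 39 reached a mean normalized count of at least 10 over the 6 libraries and were tested in the main comparison, and 31 did not.

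RNA from 3 libraries of T1 and 3 of T2 was sequenced to compare an aggressive with a less aggressive tumor cell population that had come from one primary tumor. Both descend from 4T1GFP, the BALB/c mouse mammary carcinoma line 4T1 tagged with green fluorescent protein (GFP) and grown in the mammary fat pad. They outgrew a culture of cells that had been sorted from the dissociated tumor as GFP-negative and CD140a-positive, and were then sorted again on GFP. T1, whose labels read 4T1A, was GFP low, adherent and epithelial in shape, proliferated faster and was the aggressive population, whereas T2, labelled 4T1NA, was GFP high, round and loosely attached, proliferated more slowly and was the less aggressive one. Both were kept in the same serum-containing medium with no added drug or genetic change that the labels or methods name, and T2 was passaged without trypsin. Each population is thus a culture derived from one tumor, growth form and GFP class go with the population in every library, and the source line was not analysed here.

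The libraries held between 18133227 and 20839686 reads on genes, so that 1 read was worth between 0.928 and 1.06 normalized counts. Of 10 epithelial markers 8 were tested, with a summed normalized count of 73096 to 81423 in T1 and 37495 to 43418 in T2. The T2 sum was almost all Krt8 and Krt18. The defining marker Epcam had between 2931 and 3502 normalized counts in T1 and between 30.7 and 37.2 in T2, Cdh1 had between 13726 and 15461 and between 453 and 484, and Krt14, Krt19, Cldn4 and Esrp1 had at most 8.19 in any T2 library. Krt5 was at 0 in all libraries. Epcam, Cdh1, Krt14, Krt19, Cldn4 and Esrp1 were thus much lower in every T2 library than in any T1 library. The 8 endothelial markers summed to at most 16.9 normalized counts in T1 and 6.50 in T2, with Kdr and Emcn at 0. The 10 fibroblast markers summed to between 232 and 246 in T1 and between 997 and 1298 in T2, nearly all of it Pdgfra, with Col3a1, Lum, Pdgfrb and Thy1 at 0. The 8 leukocyte markers summed to between 387 and 470 in T1 and between 167 and 204 in T2, nearly all of it Cd14 and Cd68, with Tyrobp and Cd3e at 0. Cd14 had between 319 and 375 in T1 and between 69.5 and 102 in T2. Cd68 was not lower in T2, with between 58.2 and 87.8 in T1 and between 77.9 and 118 in T2. Ptprc was at 0 in T1 and had between 2.78 and 6.14 in T2. The part of the epithelial, fibroblast and leukocyte markers in the differences below was not tested. In such bulk libraries a smaller share of cells that express a gene and less RNA per cell cannot be told apart.

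Ligands of this family are secreted dimers that assemble type I and type II receptor kinases. TGF-beta and activin receptors phosphorylate Smad2 and Smad3, BMP receptors phosphorylate Smad1, Smad5 and Smad9, and each set enters the nucleus with Smad4. In mammary epithelium the TGF-beta branch is known for growth arrest early in tumorigenesis and for epithelial-mesenchymal transition and invasion later, and the Id genes are classical BMP targets whose products block basic helix-loop-helix factors.

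Of the 39 members tested, 8 were higher and 15 were lower in T1, and 16 did not pass (limma, Benjamini-Hochberg adjusted p under 0.01 over 11514 genes). The calls thus took 59.0% of the members tested. Over all genes tested, 25.1% were higher and 24.4% were lower in T1, 49.5% together. The median log2 fold change, T1 against T2, was -0.28 over the members and -0.01 over all genes, and the median absolute log2 fold change was 0.66 against 0.45. Of the 23 members that differed, 10 did so by an absolute log2 fold change under 1.

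When a log2 fold change beyond 2 in either direction was required as well, 8 members remained. Inhba, Nog, Tgfb2 and Fstl3 were higher in T1, and Tgfbr3, Id1, Id2 and Id4 were lower, where 4.17% of all genes were higher and 4.2% were lower by these filters. The 4 higher members are secreted ligand subunits or antagonists, and the 4 lower members are a co-receptor and the Id genes. Values of T1 and T2 did not overlap for 28 of the 39 members, against 68.1% of all genes tested. Nog, Tgfb2 and Id4 reached the test only because of the population in which they were high.

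**Figure D1:**
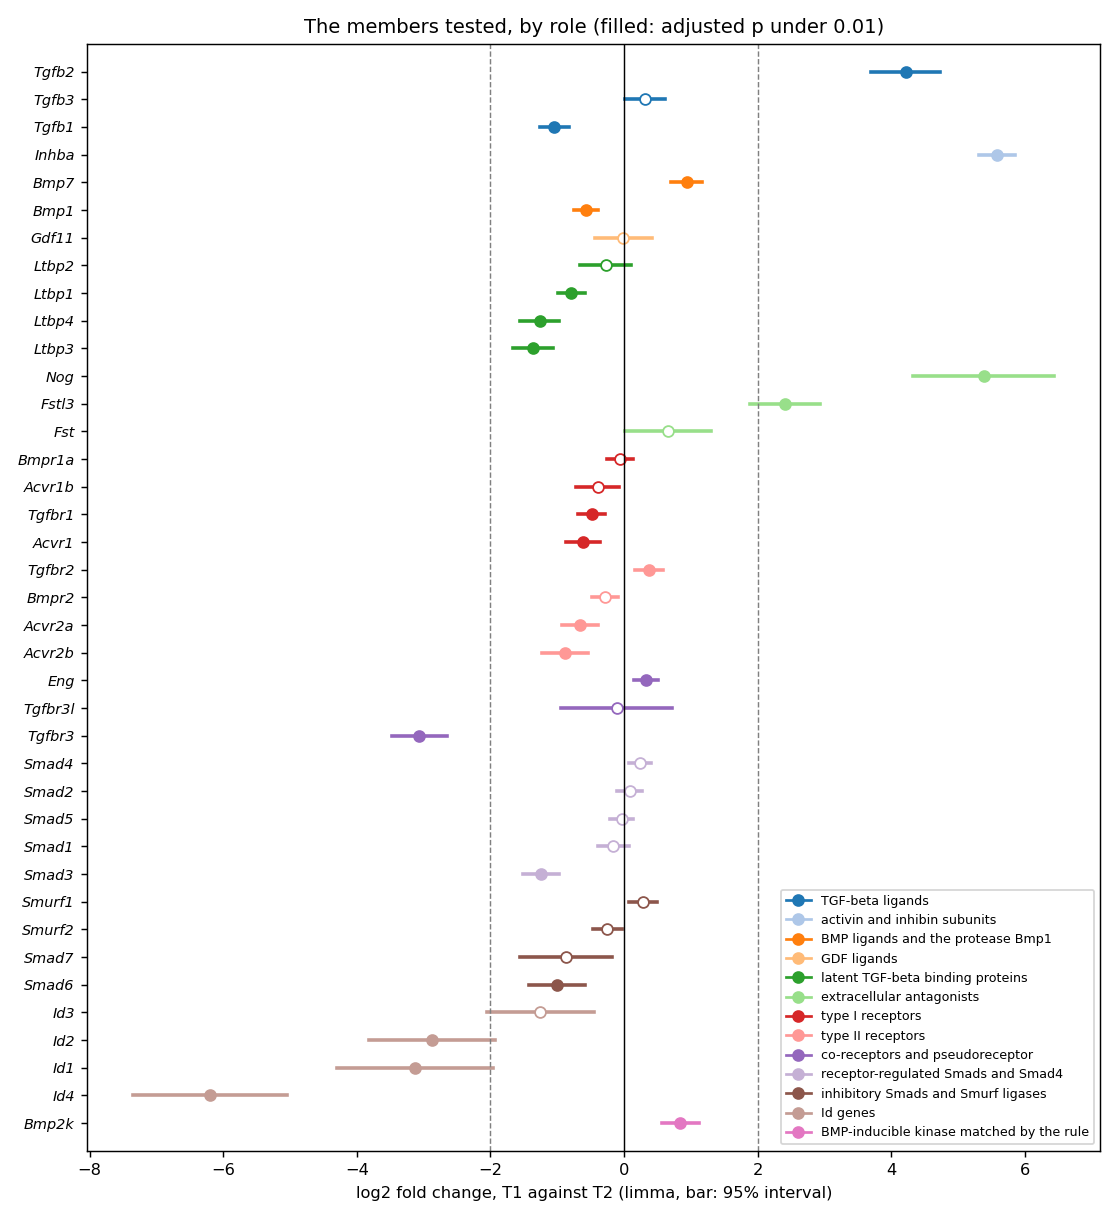
Log2 fold change of T1 against T2 (x axis) for the 39 members tested, grouped and colored by role, where points are limma estimates, bars are 95% intervals, filled points have an adjusted p under 0.01, and dashed lines mark a log2 fold change of -2 and 2. The 4 members to the right of the upper dashed line are ligand or antagonist genes, whereas 3 of the 4 to the left of the lower one are Id genes.

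Promoter sequence is shown for the members past both filters that the RefSeq promoter table (GRCm38.p6) holds, to let the start regions of the genes that were higher in T1 be set beside those that were lower. The table held 51 of the 70 members, and Nog, Tgfbr3 and Id1 had no entry. Each sequence below reads 5′ to 3′ on the strand of the gene and comes from the 250 bases before the RefSeq start, from which positions are counted. The Fstl3 window held 248 of these bases and the Id2 window 89, and neither reaches that start. The Id2 window lies inside the longer gene coordinates given for Id2 below. Capitals mark matches to the motifs searched on both strands, the Smad box CAGAC (or GTCTG), the Smad palindrome GTCTAGAC and the BMP response element core GGCGCC. None of the 3 motifs overlaps another in these windows.
Tgfb2 (chr1:186705990-186706239, minus strand): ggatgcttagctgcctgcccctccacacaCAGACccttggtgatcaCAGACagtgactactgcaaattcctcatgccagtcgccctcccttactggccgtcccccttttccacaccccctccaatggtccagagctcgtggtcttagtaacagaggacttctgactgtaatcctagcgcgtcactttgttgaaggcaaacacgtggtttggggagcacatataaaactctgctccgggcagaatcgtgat
Fstl3 (chr10:79777024-79777271, plus strand): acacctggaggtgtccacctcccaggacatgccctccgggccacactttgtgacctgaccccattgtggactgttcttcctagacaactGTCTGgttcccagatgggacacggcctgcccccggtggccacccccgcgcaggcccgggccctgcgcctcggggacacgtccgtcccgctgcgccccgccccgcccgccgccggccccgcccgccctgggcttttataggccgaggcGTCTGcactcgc
Inhba (chr13:16011601-16011850, plus strand): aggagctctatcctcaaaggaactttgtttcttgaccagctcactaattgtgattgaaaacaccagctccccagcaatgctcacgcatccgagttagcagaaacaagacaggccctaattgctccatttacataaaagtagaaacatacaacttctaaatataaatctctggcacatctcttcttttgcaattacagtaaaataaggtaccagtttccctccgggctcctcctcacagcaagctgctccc
Id4 (chr13:48260866-48261115, plus strand): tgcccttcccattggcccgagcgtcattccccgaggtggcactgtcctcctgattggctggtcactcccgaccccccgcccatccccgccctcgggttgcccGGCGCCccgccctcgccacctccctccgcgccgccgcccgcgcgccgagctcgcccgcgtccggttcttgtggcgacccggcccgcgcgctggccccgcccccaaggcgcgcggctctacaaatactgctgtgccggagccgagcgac
Id2 (chr12:25096254-25096342, minus strand, cut where an annotated exon begins): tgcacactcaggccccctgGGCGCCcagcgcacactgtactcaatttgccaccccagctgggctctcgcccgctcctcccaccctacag

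The Tgfb2 window held 2 Smad boxes, which began at -221 and -204 from the start, and the Fstl3 window held 2, at -161 and -14. The Id4 and Id2 windows each held 1 GGCGCC, at -148 and -231. No match to the 3 motifs lay in the Inhba window. Over 32544 windows of up to 250 bases, 42.2% held at least 1 Smad box on either strand, 9.65% held GGCGCC and 0.169% held the palindrome. GGCGCC has only the letters G and C. These made up 75.6% of the Id4 window and 62.8% of the Id2 window, against 53.3% over all windows. A match is a description of these letters and was not tested for binding.

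Among the ligands, the gene for the activin beta A subunit stood furthest apart. Inhba (chr13:16011851-16031621, mm10) encodes the chain that pairs with itself to form activin A. It had 4037, 4374 and 4077 normalized counts in the T1 libraries and 72.5, 97.3 and 89.1 in T2. Every T1 library lay far above every T2 library, with 4162 ± 184 against 86.3 ± 12.6 (SD, n = 3), a ratio of 48.2 (log2 fold change 5.59, SE 0.12, limma adjusted p = 5.1e-10). Per kilobase of exon, Inhba was the ligand with the highest level in T1, at 651 normalized counts, followed by Bmp7 at 300.3, whereas in T2 it stood at 13.5.

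The TGF-beta ligands moved in different directions. Tgfb2 (chr1:186622792-186705989) had 179, 203 and 204 normalized counts in T1 and 8.81, 8.19 and 12.1 in T2. The T1 libraries were all higher, by a ratio of 20.1 (195 ± 14.2 against 9.69 ± 2.08, SD, n = 3, log2 fold change 4.21, SE 0.23, limma adjusted p = 1.9e-07). Tgfb1 (chr7:25687002-25705077), the most widely expressed isoform, had 873, 945 and 755 in T1 and 1836, 1734 and 1713 in T2, so that all T2 libraries were higher (log2 fold change -1.04, SE 0.10, limma adjusted p = 8.3e-06). Tgfb3 had 523 ± 49.1 in T1 and 422 ± 60.6 in T2 with overlapping libraries, a log2 fold change of 0.31 that did not pass the test (95% interval 0.02 to 0.61, limma adjusted p = 0.062).

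The make-up of the TGF-beta ligand mRNA differed accordingly. On the scale of normalized counts per kilobase, Tgfb1 took 47.4 ± 4.72% of the ligand sum in T1 and 73.4 ± 3.47% in T2 (SD, n = 3). Tgfb3 took 43.2 ± 4.55% and 26.2 ± 3.42%, and Tgfb2 took 9.41 ± 0.749% and 0.351 ± 0.0691%. The libraries of T1 and T2 did not overlap for any of these shares, and the exact two-sided permutation test gave p = 0.1 for each, the smallest value 3 against 3 allows. Tgfb1 had the highest level per kilobase of the 3 in every T2 library, whereas in T1 the shares of Tgfb1 and Tgfb3 overlapped, and Tgfb2 was the lowest in all 6 libraries.

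**Figure D2:**
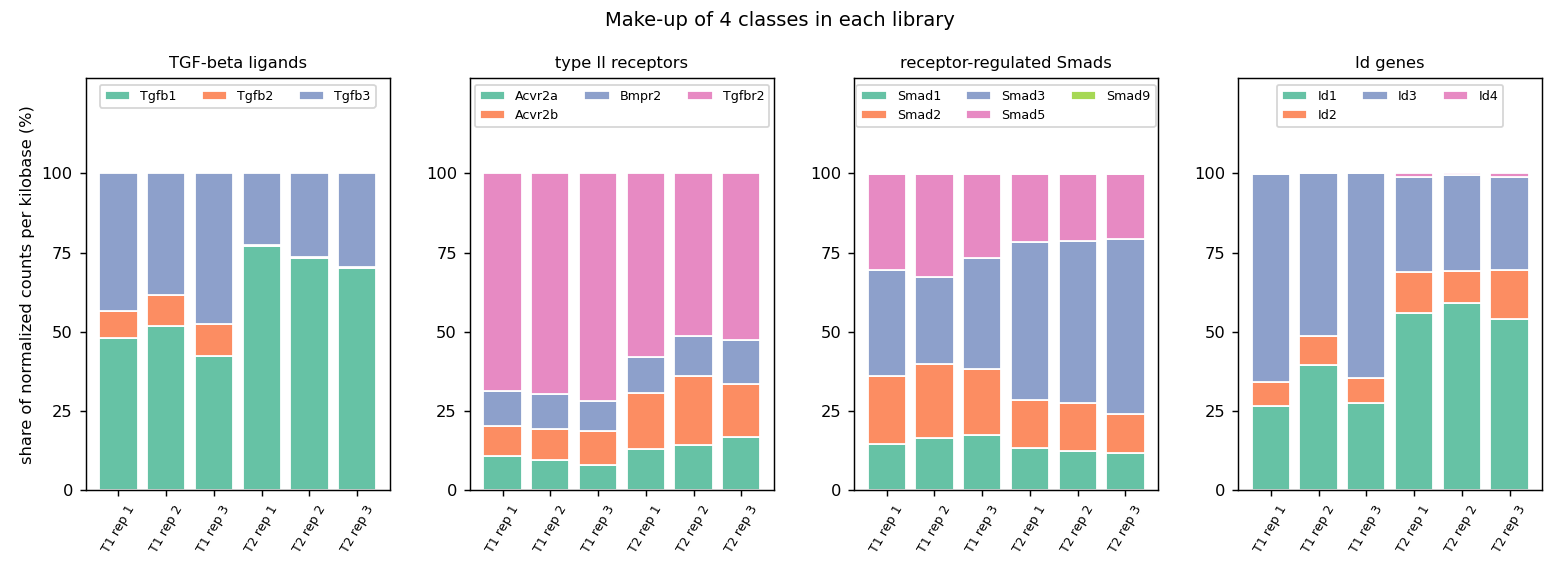
Share of the summed normalized counts per kilobase (y axis, percent) taken by each gene of 4 classes in each of the 6 libraries (x axis), with 1 stacked bar per library. Tgfb1, Smad3 and Id1 take larger shares in the T2 bars, whereas Tgfb3, Tgfbr2 and Id3 take larger shares in the T1 bars.

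Bmp7, which signals through BMP type I receptors, was the one BMP ligand that reached the test. It had 1117, 1319.7 and 1184 normalized counts in T1 and 566, 669.6 and 649.5 in T2, higher in every T1 library (log2 fold change 0.94, SE 0.10, limma adjusted p = 2.6e-05). Bmp1, named with the BMPs but a procollagen C-proteinase, was lower in T1 (6838 ± 281 against 10146 ± 875, log2 fold change -0.57, limma adjusted p = 0.00014). Bmp2k, a kinase gene induced by BMP2 that the symbol rule also matched, was higher in T1 (510.2 ± 10.5 against 286 ± 36.5, log2 fold change 0.84, limma adjusted p = 0.00019). Gdf11, a ligand of the activin receptors, was the only GDF gene tested and had 518 ± 128 and 515 ± 97.2 (log2 fold change -0.01, 95% interval -0.44 to 0.42, limma adjusted p = 0.97).

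Most other ligand genes were at or near 0. Bmp2, Bmp5, Bmp8a, Bmp8b, Bmp10, Gdf2, Gdf3, Gdf6, Gdf10, Inha and Inhbc had 0 reads in all 6 libraries, and so had the antagonist Grem1 and the type I receptor Acvrl1. The members below the filter that follow had at least 1 read in some library. Smad9 had at most 12 reads in a library, Gdf9 at most 9, Inhbb at most 8, Chrd and Inhbe at most 5 each, Gdf7 at most 5 and Gdf5 at most 4. Bmp3, Bmp6, Bmp15, Bmpr1b and Gdf1 reached 2 reads, and Bmp4, Gdf15, Acvr1c, Bambi and Nodal reached 1. Without the filter on low counts, 17 of the 31 members, those with at least 1 read, could be tested. Of these 17 only Chrd, a BMP antagonist gene, passed, with 2, 4 and 5 reads in T1 and 0 in every T2 library (limma adjusted p = 0.0013), too few reads to give a fold.

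Latent TGF-beta binding proteins hold the secreted ligand in the extracellular matrix, and 3 of the 4 were lower in T1. Ltbp3 had 3805 ± 683 normalized counts in T1 and 9731 ± 1445 in T2 (SD, n = 3, log2 fold change -1.36, limma adjusted p = 1.1e-05), the largest difference of the class. Ltbp4 had 1796 ± 326 and 4297 ± 544 (log2 fold change -1.27, limma adjusted p = 1.7e-05), and Ltbp1 had 5938 ± 721 and 10224 ± 405 (log2 fold change -0.79, limma adjusted p = 3.6e-05). No T1 library reached the lowest T2 library for these 3 genes. Ltbp2, which does not bind latent TGF-beta itself, had 1963 ± 354 and 2394 ± 573 and did not pass (log2 fold change -0.28, 95% interval -0.65 to 0.10, limma adjusted p = 0.18).

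Among the members, the extracellular antagonists that differed, Nog and Fstl3, were higher in T1. Nog (chr11:89300638-89302332) encodes noggin, which binds BMPs and keeps them from their receptors. It had 128, 184 and 139.6 normalized counts in T1 and 0.979, 7.17 and 1.86 in T2, the latter from 1, 7 and 2 reads. All T1 libraries were higher (log2 fold change 5.38, SE 0.48, limma adjusted p = 5.1e-06). The size of this fold change rested on the few T2 reads, and it was 5.98 without T2 replicate 2 and 4.28 with a pseudocount of 5.

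Fstl3 (chr10:79777272-79782630) encodes a follistatin-like glycoprotein that binds activins. Its normalized counts were 258, 296 and 302 in T1 and 65.6, 63.5 and 35.3 in T2, so that every T1 library was higher, by a ratio of 5.21 (285 ± 23.6 against 54.8 ± 16.9, log2 fold change 2.41, SE 0.24, limma adjusted p = 1.1e-05). Exons of Prss57 on the other strand share 47.3% of its exonic bases, and Prss57 had at most 1 read in any library. Whether reads in the shared bases were counted is not known, so the low Prss57 count does not settle the overlap. Fst, which encodes follistatin, had 104, 143 and 65.4 in T1 and 58.8, 78.8 and 52.0 in T2 with overlapping libraries. It did not pass (log2 fold change 0.66, limma adjusted p = 0.068), although without T1 replicate 3 it did (log2 fold change 0.96, limma adjusted p = 0.0075). That library was the lowest in T1, so leaving it out widens the difference, and this p-value is no added support. Without single libraries the log2 fold change of Fst ran from 0.40 to 0.96.

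Setting ligand against antagonist within each library, the ratio of Inhba to the sum of Fst and Fstl3, all per kilobase, was 4.93, 4.50 and 4.64 in T1 and 0.286, 0.353 and 0.542 in T2. Inhba exceeded its antagonists in all T1 libraries and lay below them in all T2 libraries. The ratio of Nog to Bmp7 per kilobase was 0.272, 0.331 and 0.280 in T1 and 0.00410, 0.0254 and 0.00678 in T2. The T2 values rest on 1, 7 and 2 reads of Nog, which reached the test only through T1. Both ratios describe mRNA levels and combine genes whose own differences are given above. If reads in the bases that Fstl3 shares with Prss57 were not counted, Fstl3 per kilobase is too low and the Inhba ratios are too high.

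**Figure D3:**
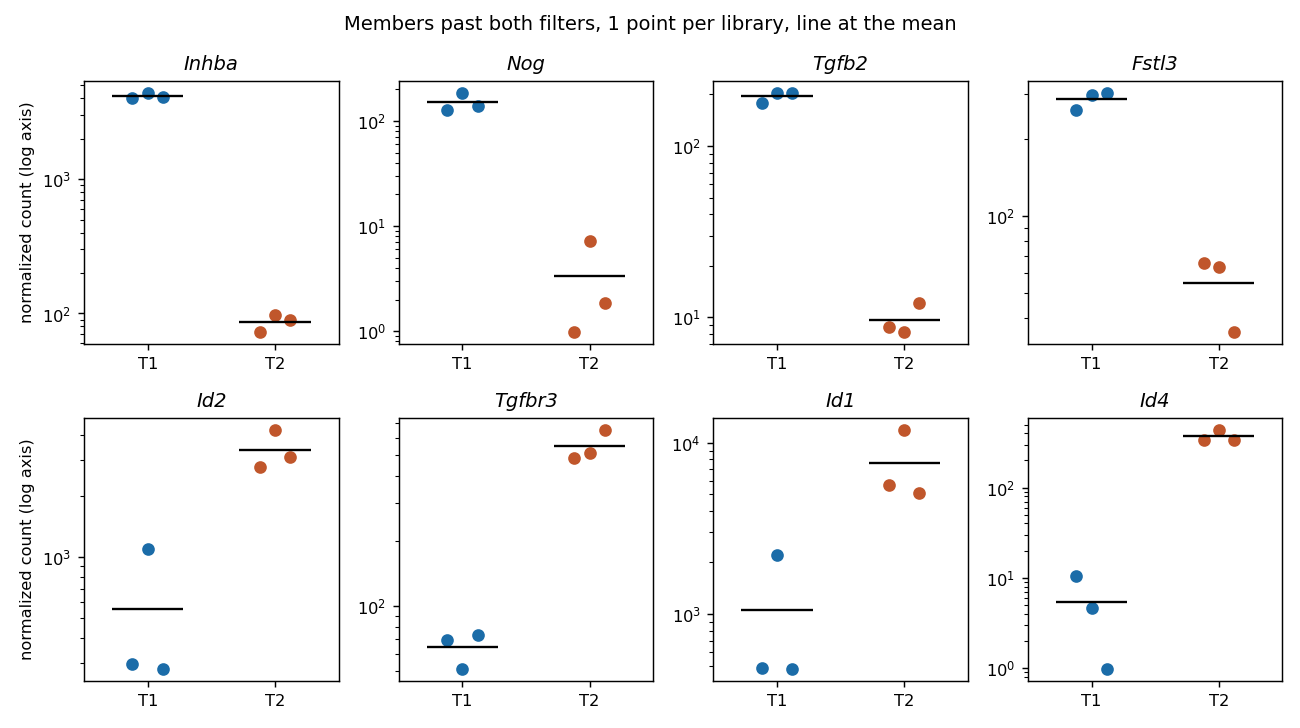
Normalized counts (y axis, logarithmic) of the 8 members past both filters in T1 and T2, with 1 point per library and a line at the mean of the 3 libraries. Libraries of T1 and T2 do not overlap for any of the 8 genes, and the T1 points of Id1 and Id2 include 1 library, replicate 2, far above the other 2.

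Among the receptors and co-receptors, one gene was past both filters. Tgfbr3 (chr5:107106570-107289629) encodes betaglycan, which presents TGF-beta2 to the type II receptor and also binds inhibin. It had 69.8, 51.1 and 73.2 normalized counts in T1 and 482, 509.9 and 654 in T2. Every T2 library was higher, by a ratio of 8.48 (64.7 ± 11.9 against 549 ± 92.5, log2 fold change -3.07, SE 0.19, limma adjusted p = 3.5e-07). The ligand Tgfb2, which was higher in T1, and the co-receptor that presents it thus differed in opposite directions.

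Eng, which encodes endoglin, a co-receptor best known from endothelium, had 1479 ± 87.5 normalized counts in T1 and 1176 ± 42.3 in T2 (log2 fold change 0.33, limma adjusted p = 0.0059), beside endothelial markers near 0. It lost its call without any one library except T1 replicate 3, with limma adjusted p values between 0.0107 and 0.0295 for these leave-outs. Tgfbr3l, whose exons share 52.2% of their bases with other genes, had 14.3 ± 6.02 and 14.7 ± 1.49 (log2 fold change -0.11, 95% interval -0.94 to 0.72, limma adjusted p = 0.82). Bambi, a pseudoreceptor, had at most 1 read.

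Of the type II receptors, Tgfbr2 was higher and Acvr2a and Acvr2b were lower in T1. Tgfbr2, the TGF-beta binding receptor, had 4247, 4378 and 5138 normalized counts in T1 and 3818, 3468 and 3314 in T2 (log2 fold change 0.37, SE 0.09, limma adjusted p = 0.005). This small difference lost its call without T1 replicate 2 or 3 or T2 replicate 2 or 3, with limma adjusted p values of 0.0106, 0.01, 0.0182 and 0.0247. Acvr2b, an activin receptor, had 317 ± 50.2 and 589.6 ± 101 (log2 fold change -0.89, limma adjusted p = 0.00058), and Acvr2a had 421 ± 41.2 and 666 ± 68.1 (log2 fold change -0.66, limma adjusted p = 0.00076).

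Bmpr2, the BMP type II receptor, did not pass (1490.2 ± 22.1 against 1815 ± 164, log2 fold change -0.28, limma adjusted p = 0.017), but did without T2 replicate 1 (log2 fold change -0.36, limma adjusted p = 0.0081). That library was the T2 library nearest to T1, so leaving it out widens the difference, and this p-value is no added support. Without single libraries the log2 fold change of Bmpr2 ran from -0.36 to -0.23. Tgfbr2 took 70.1 ± 1.68% of the type II receptor sum per kilobase in T1 and 54.0 ± 3.65% in T2, and Acvr2b took 10.1 ± 0.777% and 18.7 ± 2.63%. The shares did not overlap for either gene (exact permutation p = 0.1, the smallest possible).

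Among the type I receptors, Tgfbr1 and Acvr1 were lower in T1. Tgfbr1, the kinase partner of Tgfbr2, had 1321 ± 88.6 normalized counts in T1 and 1851 ± 152 in T2 (log2 fold change -0.49, limma adjusted p = 0.00095). Acvr1, which responds to BMPs and activins, had 814 ± 119.6 and 1236 ± 64.8 (log2 fold change -0.61, limma adjusted p = 0.001). The activin type I receptor Acvr1b did not pass (190.5 ± 17.9 against 251 ± 28.4, log2 fold change -0.40, limma adjusted p = 0.036), nor did the BMP receptor Bmpr1a (2778 ± 156 against 2902 ± 244, log2 fold change -0.06, 95% interval -0.25 to 0.13, limma adjusted p = 0.55). Bmpr1a had the highest level per kilobase of the class in both populations, at 437 and 457.

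Of the receptor-regulated Smads and Smad4, one gene differed. Smad3 (chr9:63646767-63757994), which carries TGF-beta and activin signals, had 1468, 1183 and 1611 normalized counts in T1 and 3039, 3245 and 3755 in T2. All T2 libraries were higher (1421 ± 218 against 3346 ± 369, log2 fold change -1.24, SE 0.12, limma adjusted p = 1.1e-05). Its partner Smad2 had 1529 ± 48.3 and 1446 ± 96.6 (log2 fold change 0.08, 95% interval -0.10 to 0.27, limma adjusted p = 0.41).

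The BMP-branch Smads did not pass, with log2 fold changes of -0.16 for Smad1 (95% interval -0.39 to 0.07) and -0.04 for Smad5 (95% interval -0.21 to 0.14). Smad4, the shared partner, had 2522 ± 168 and 2136 ± 37.4 (log2 fold change 0.24, 95% interval 0.07 to 0.41, limma adjusted p = 0.021) and did not pass either. Smad3 took 32.1 ± 3.86% of the receptor-regulated Smad sum per kilobase in T1 and 52.2 ± 2.83% in T2, with no overlap (exact permutation p = 0.1, the smallest possible).

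The inhibitory arm held 1 gene that passed. Smad6, which mainly restrains BMP receptors, had 109, 135 and 160.1 normalized counts in T1 and 225, 270.3 and 316 in T2, higher in every T2 library (log2 fold change -1.01, SE 0.19, limma adjusted p = 0.00087). Smad7, which restrains TGF-beta receptors, had 1015, 1411 and 1148 in T1 and 1704, 4022 and 1448 in T2. Its libraries did not overlap, but 1 T2 library lay far above the other 2 and the test did not pass (log2 fold change -0.86, SE 0.31, limma adjusted p = 0.032). The ubiquitin ligases Smurf1 and Smurf2 did not pass, with log2 fold changes of 0.28 (95% interval 0.08 to 0.49) and -0.25 (95% interval -0.46 to -0.04).

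Of the 4 Id genes, 3 were lower in T1, all past both filters. Id4 (chr13:48261228-48266026) had 10.6, 4.65 and 0.976 normalized counts in T1, from 10, 5 and 1 reads, and 341, 438 and 337 in T2. All T2 libraries were higher (5.40 ± 4.85 against 372 ± 57.4, log2 fold change -6.19, SE 0.52, limma adjusted p = 3.5e-06). The size moved to -6.79 without T1 replicate 1, to -5.52 without T1 replicate 3 and to -5.28 with a pseudocount of 5. The antisense gene A330033J07Rik, which shares part of its exonic bases, had 0 reads in T1 and 17, 16 and 15 in T2, and the libraries do not mark strand.

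Id1 (chr2:152736251-152737410) had 484, 2203 and 478 normalized counts in T1 and 5689, 11914 and 5089.6 in T2. Every T2 library was above every T1 library, but replicate 2 stood above the other 2 in both populations (1055 ± 994 against 7564 ± 3779, log2 fold change -3.13, SE 0.52, limma adjusted p = 0.00044). Id2 (chr12:25093799-25097140) had 299, 1095 and 282 in T1 and 2770.1, 4225 and 3115 in T2, again with replicate 2 highest in both (log2 fold change -2.87, SE 0.42, limma adjusted p = 0.00019). Without T1 replicate 2 the log2 fold changes were -3.86 for Id1 and -3.51 for Id2.

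Id3 had 1849.5, 4442 and 1729 normalized counts in T1 and 4769, 9381 and 4288 in T2. The T1 replicate 2 library exceeded 1 T2 library, and the test did not pass (log2 fold change -1.25, SE 0.36, limma adjusted p = 0.0115). Without T1 replicate 2 it did, with a log2 fold change of -1.69 (limma adjusted p = 0.00056). That library was the T1 library nearest to T2, so leaving it out widens the difference, and this p-value is no added support. Without single libraries the log2 fold change of Id3 ran from -1.69 to -0.90. Id3 took the largest share of the Id sum per kilobase in T1, 60.5 ± 7.95% against 29.95 ± 0.491% in T2, whereas Id1 led in T2 with 56.3 ± 2.69% against 31.1 ± 7.12% in T1, and neither share overlapped (exact permutation p = 0.1, the smallest possible).

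The libraries numbered 2 were examined further, since they set the spread of several members. Replicate 2 was the highest library in both populations for 12 of the 39 members (30.8%), against 1230 of 11514 genes tested (10.7%). The 12 were Acvr1, Bmp2k, Bmp7, Fst, Id1, Id2, Id3, Inhba, Ltbp2, Nog, Smad2 and Smad7. Being highest took any margin. For Acvr1, Bmp2k, Bmp7, Inhba and Smad2, replicate 2 exceeded the mean of replicates 1 and 3 by ratios of only 1.03 to 1.22. The ratios were 1.69 in T1 and 1.42 in T2 for Fst, and 1.24 and 1.47 for Ltbp2. For Nog they were 1.38 and 5.06, the latter from T2 libraries with 1, 7 and 2 reads. Replicate 2 exceeded the mean of replicates 1 and 3 by a ratio of 4.58 in T1 and 2.21 in T2 for Id1, 3.77 and 1.44 for Id2, 2.48 and 2.07 for Id3, and 1.31 and 2.55 for Smad7. The same ratios were 0.805 and 1.29 for Id4 and 1.002 and 0.998 for Smad6, so that neither moved in this way in both populations.

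**Figure D4:**
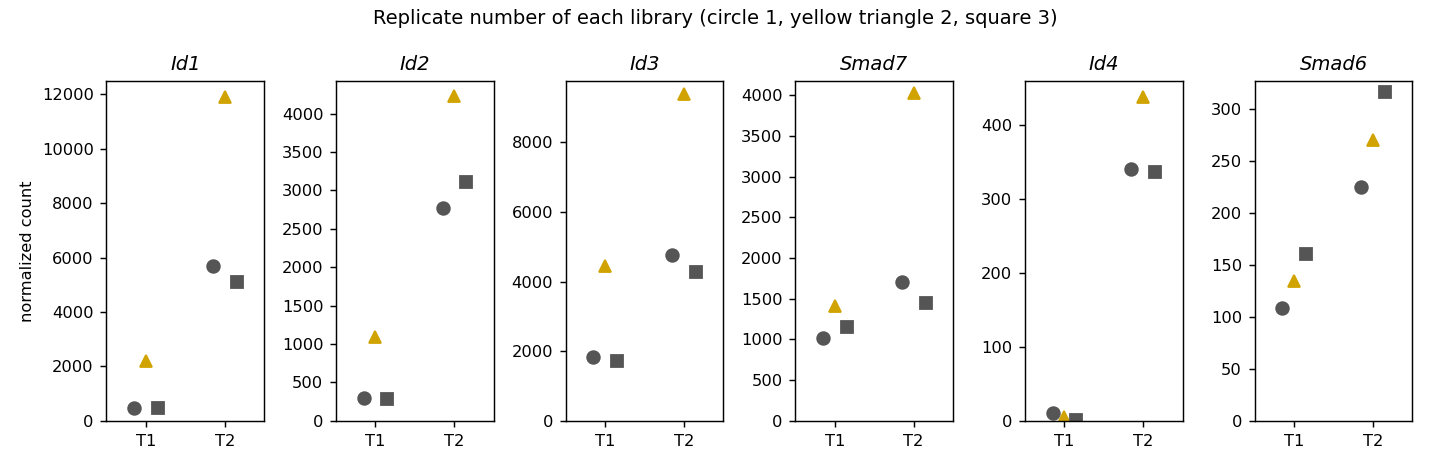
Normalized counts (y axis) of 6 members in T1 and T2, with 1 marker per library, where circles are replicate 1, triangles replicate 2 and squares replicate 3. The triangles stand above the other 2 libraries in both populations for Id1, Id2, Id3 and Smad7, and in 1 or neither population for Id4 and Smad6.

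A list of 24 immediate early genes, which respond within minutes to serum, stress or handling, was written after these values were seen. The share that follows is therefore a description only. All but Jun, Ier5 and Btg2, 20 of the 23 tested (87%), had replicate 2 highest in both populations. Fos, for example, had 479, 4333 and 1106 normalized counts in T1 and 4518, 8535 and 6568 in T2, and Atf3 had 578, 2228 and 684 in T1 and 195, 2897 and 267 in T2. The part of whatever set these libraries apart in the Id and Smad7 levels was not tested. Both replicates numbered 2 were then left out, a choice made after the values were seen, which left 2 libraries in each population. Id1, Id2 and Id4 stayed past both filters at log2 fold changes of -3.48, -3.33 and -6.15. Id3 (-1.34, limma adjusted p = 1.6e-05) and Smad7 (-0.54, limma adjusted p = 0.008) passed, and Acvr2a, Eng and Tgfbr2 did not. Leaving out the libraries that set the spread of Id3 and Smad7 shrinks that spread, so these 2 p-values are no added support.

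The wider pathway was described with lists of genes that the symbol rule does not match, 121 genes in all. Of these 80 were tested, and 27 were higher, 23 were lower and 30 did not pass, with 12 higher and 5 lower by both filters and a median log2 fold change of -0.01. The shares of all genes tested were, as above, 25.1% higher and 24.4% lower, and 4.17% and 4.2% by both filters, and they are the background for every list below. Of the 12 higher genes 6 reached the test only through T1, namely Itgb6, Pcsk6, Nbl1, Postn, Tgfbi and Col1a1, so the filter itself favored a difference in them. Fbn1 also entered only through T1 and did not pass (limma adjusted p = 0.0125). None of the 5 lower genes was tested only through T2. Fn1, Thbs1 and Pmepa1 stand on more than one of the lists. Counts per list follow, and no list was tested as a set. The lists were chosen with earlier results of these data known, so a share that departs from the background is a description and no independent support.

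Of 11 genes of TGF-beta latency and activation tested, 8 were higher in T1 and 1 was lower (median log2 fold change 1.84), against 25.1% and 24.4% of all genes. Thbs1, which encodes thrombospondin-1, an activator of latent TGF-beta, had 51718 ± 4851 normalized counts in T1 and 2849.6 ± 144 in T2 (log2 fold change 4.18, limma adjusted p = 4e-10). Itgb6, the beta chain of the integrin that activates latent TGF-beta1 and TGF-beta3, had 151, 259 and 248 in T1 and 0, 1.02 and 0 in T2 (limma adjusted p = 1.5e-07), and the proprotein convertase gene Pcsk6 had 265, 321 and 234 against 2.94, 0 and 0 (limma adjusted p = 7.9e-07). The matrix gene Fn1 was also past both filters (log2 fold change 2.90), while the integrin alpha chain gene Itgav was the one lower gene (log2 fold change -0.60). Furin, another proprotein convertase gene, had 3172 ± 23.6 in T1 and 3186 ± 208 in T2 and did not pass (log2 fold change -0.004, limma adjusted p = 0.96). The 8 higher genes include Itgb6 and Pcsk6, which reached the test only through T1. A link of these genes to the lower latent binding protein genes was not tested.

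Of 7 other extracellular modulators tested, 2 were higher and 4 were lower in T1 (median log2 fold change -0.55). Nbl1, which encodes a BMP antagonist of the DAN family, had 241 ± 13.9 normalized counts in T1 and 2.31 ± 1.20 in T2 (log2 fold change 6.27, limma adjusted p = 1.4e-07), the latter from 3, 3 and 1 reads. Rgma, a BMP co-receptor gene, was lower (96.7 ± 27.1 against 577 ± 110.4, log2 fold change -2.59, limma adjusted p = 3.6e-06). The other lower genes were Rgmb, Vasn and Twsg1 (log2 fold changes -1.77, -0.60 and -0.55). The other higher gene was Crim1 (log2 fold change 0.96). Nog and Nbl1, both BMP antagonist genes, reached the test only through T1, so their shared direction is no separate result.

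Most intracellular regulators did not pass, with 5 higher, 7 lower and 23 of 35 not called (median log2 fold change -0.15). The exceptions past both filters were Pmepa1, a TGF-beta-induced inhibitor of Smad signaling, at 4049.5 ± 457 in T1 and 221 ± 70.8 in T2 (log2 fold change 4.23, limma adjusted p = 4.6e-08), and Dab2, an adaptor linking TGF-beta receptors to Smads, at 498 ± 15.2 and 3975 ± 150.4 (log2 fold change -2.99, limma adjusted p = 1.9e-09).

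Genes widely used as TGF-beta responsive did not share a direction. Of 29 tested, 14 were higher and 10 were lower in T1, with 9 higher and 3 lower by both filters (median log2 fold change 0.68). The higher genes included Ctgf, which encodes a matricellular protein (13727 ± 2277 against 178 ± 11.4, log2 fold change 6.25, limma adjusted p = 2.3e-10), and Postn, which encodes periostin, with 126, 146 and 162 normalized counts in T1 and 0 reads in T2, at least 49.4-fold higher against a floor of 3 reads per library. The lower genes included the cell cycle inhibitor gene Cdkn1a (181 ± 49.6 against 1738 ± 264, log2 fold change -3.28, limma adjusted p = 2.6e-07) and the metalloproteinase gene Adam19 (309.8 ± 39.4 against 2364 ± 611, log2 fold change -2.90, limma adjusted p = 2.9e-07).

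Of 11 genes used as BMP responsive and not matched by the rule, 2 reached the test. Tob1, an antiproliferative gene, was higher in T1 (638 ± 145 against 218 ± 100.04, log2 fold change 1.61, limma adjusted p = 0.00047), and Runx2, a transcription factor gene of bone formation, was lower (974 ± 238 against 1891 ± 222, log2 fold change -0.98, limma adjusted p = 0.00031).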

How the data were processed

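Poly(A) RNA of 3 T1 and 3 T2 libraries was sequenced as paired reads, and per the labels and methods the authors trimmed reads with Trimmomatic, aligned them to mm10 with TopHat2, counted genes with HTSeq and normalized with DESeq2. Versions, annotation and strand setting are not given in the sources used here, and the kit does not mark strand. The deposited values are normalized counts, a signal equal to reads divided by 1 size factor per library. After division by the value of 1 read, every value was whole within 0.02 reads, and alternatives used these recovered reads. The table held 24129 names, 27 of which read as dates.

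The 11514 genes whose 6 libraries averaged 10 or more normalized counts were tested on log2(normalized count + 1) with limma 3.58.1 (trend, R 4.3.3). Fold changes are on this scale and understate low genes. Calls needed a Benjamini-Hochberg adjusted p under 0.01 over all genes tested, and both filters also a log2 fold change beyond 2. Shares of a class used normalized counts per kilobase of exon (GENCODE M21, GRCm38) and an exact two-sided permutation test. Members past both filters were named with the value in every library, other members with means or by name, and in each list the largest changes past both filters in each direction. The members and lists were chosen with earlier results of these data known. Alternatives were pseudocounts of 0.5 and 5, no filter or a mean of 50, quantile normalization, no trend, edgeR 4.0.16 and DESeq2 1.42.0 on whole reads, a replicate block, other thresholds and leaving out libraries. One member below the filter is not reported here. Replicates were called independent, with no separate cultures described, so p-values measure the spread between these libraries, which may be technical.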

Additional observations from a re-analysis of the deposited data

How the results depend on the processing

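Over 662 member values under alternatives, 624 kept their direction and side of the threshold, 16 gained and 14 lost a call, and 8 changed sign. The 8 members past both filters stayed past them under each alternative with a test, and edgeR and DESeq2 on whole reads each called 23 members, 8 higher and 15 lower in T1. With a log2 fold change above 1, 13 members passed both filters, 9 of them lower. By the length of the longest transcript the difference in share, T1 minus T2, was -21.1 percentage points for Tgfb1 and 7.03 for Tgfb2, against -26.0 and 9.06 by summed exon length. The sign changes were in members that had not passed. Gdf11 gave 0.0039 with edgeR, 0.0067 with DESeq2, 0.086 with both replicates numbered 2 left out (chosen after seeing the data) and -0.17 to 0.20 without single libraries. Leaving out single libraries gave -0.39 to 0.20 for Tgfbr3l, -0.073 to 0.013 for Smad5 and -0.11 to 0.0064 for Bmpr1a. It also gave 21 to 23 members that differed and 44 to 49 of the wider pathway genes. Without the trend, Eng (limma adjusted p = 0.0145) and Tgfbr2 (0.0235) lost their calls, and Id3 passed with a pseudocount of 5 (0.00969) and by quantile normalization (0.00981). At an adjusted p under 0.05, 30 members differed. With no filter on low counts 24 differed, 9 of them higher, and 9 were past both filters, the added one being Chrd.

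Same-numbered libraries of T1 and T2 had correlations of their deviations of 0.0575, 0.172 and 0.104, all positive but not all above 0.1. Libraries of unlike number had correlations between -0.152 and 0.0719, and T2 replicate 1 correlated best with another number. The numbers were not taken to pair the samples, though a shared effect of the number was not excluded. With a replicate block, 25 members differed, since Id3 (limma adjusted p = 1.05e-06) and Smad7 (0.00168) passed, and 52 of the wider pathway genes differed, against 50 without it. Whether Id3 and Smad7 pass thus depends on this choice. Genes with a few reads in 1 population, such as Nog and Id4, have fold changes that depth limits, and of the 31 members below the filter 14 had no reads to test.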
